A study of Mus musculus with 10 samples.

Results

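The E2f genes were read in the ciliated lining of the embryonic mouse nose: the activators E2f1, E2f2 and E2f3 and the repressors E2f6, E2f7 and E2f8, 6 members of a family of transcription factors, taken without E2f4 and E2f5. A probe set counted as a member where the array's annotation gave it one of these symbols and no other gene. Each of the 6 genes had 1 such probe set, out of 22180 genes with a probe set of their own, and all 6 were bright enough to be tested. The tissue was the nasal respiratory epithelium of embryos at E16.5, cut by laser from formalin-fixed paraffin sections, and Affymetrix arrays of the whole-transcript kind were run on each embryo separately. The groups were 5 wild-type embryos (WT) and 5 triple knockout embryos (TKO), which carried miR-449a/b/c-/-, miR-34b/c-/- and miR-34a-/- together. By label WT 3 was the one male among the WT embryos, and TKO 1 and TKO 3 were the 2 females among the TKO embryos. The labels name no strain and do not name littermates, so p-values measure the spread between these embryos. Each value is for bulk captured tissue, in which fewer cells of a type and less RNA per cell cannot be told apart.

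E2F proteins bind the promoters of genes for DNA replication and cell division. The activators are held in check by the retinoblastoma protein until cyclin D and its kinases release them late in G1. E2F6 lacks the part that binds retinoblastoma proteins and represses as a subunit of a polycomb complex. E2F7 and E2F8, the atypical E2Fs, carry a pair of DNA-binding domains, need no DP partner and shut off the targets that the activators switched on, E2f1 among them. E2F7 has also been described in multiciliated cells, which reuse parts of the cell-cycle programme while they make their many centrioles. E2F3 and E2F5 are among the messages reported as targets of miR-34.

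The microRNAs removed in TKO share their seed, the bases with which a microRNA pairs to its targets, and the mature forms from the 5′ arm are shown for that reason. Sequences are from RefSeq (build GRCm38.p6), with the seed, bases 2 to 8, in capitals. Mir34c and Mir449b belong to the same families.
miR-34a-5p: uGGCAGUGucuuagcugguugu
miR-34b-5p: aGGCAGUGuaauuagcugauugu
miR-449a-5p: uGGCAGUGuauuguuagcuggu
miR-449c-5p: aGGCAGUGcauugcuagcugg
All 4 carry the seed GGCAGUG. E2f2 lies on the same chromosome as Mir34a (4) and E2f3 on that of the Mir449 cluster (13), while E2f1, E2f6, E2f7 and E2f8 lie on chromosomes without a targeted gene (2, 12, 10 and 7).

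The targeted genes were read first. The Mir449c probe set went from 7.26 ± 0.28 in WT to 3.67 ± 0.49 in TKO and that of Mir449a from 7.20 ± 0.31 to 5.41 ± 0.29 (log2 values, SD, n = 5 each), with no overlap between genotypes. Mir449b fell by 0.33 on the log2 scale (limma adjusted p = 0.0259) but its probe set stayed bright, at 12.2 ± 0.04 in WT and 11.8 ± 0.17 in TKO, and Mir34b had a log2 change of -0.28 (limma adjusted p = 0.129). The arrays of Mir449b and Mir34b did not overlap between genotypes either, with TKO lower. Mir34a (3.34 to 3.68 in WT, 3.09 to 3.75 in TKO) and Mir34c (3.28 ± 0.08 and 3.11 ± 0.09) lay below the filter on dim genes in both genotypes. Of 14 markers of this epithelium 13 were tested and none passed (1 had an unadjusted p below 0.05). Of all genes tested 5.51% passed and 20.9% had such a p. Foxj1, the regulator of motile cilia, had a log2 change of 0.21 (limma adjusted p = 0.0784) and Epcam was at 8.55 ± 0.20 in WT, 8.68 ± 0.05 in TKO. The basal cell factor Trp63 was 7.53 ± 0.24 and 7.29 ± 0.11, and Cldn7 was 7.79 ± 0.09 and 7.91 ± 0.07.

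Of the 6 E2f genes, E2f7 rose in TKO and the other 5 did not pass the test. The test was limma with labelled sex in the model and Benjamini-Hochberg adjustment over 16635 genes, at a threshold of 0.05, which called 5.51% of all genes, 4.39% as higher in TKO. WT and TKO arrays were fully apart for 1 of the 6 genes, as they were for 7.6% of all genes (5.54% with TKO higher). E2f7 and E2f6, 2 of the 6, had an unadjusted p below 0.05, as did 20.9% of all genes. The median log2 change of the 6 genes was 0.11, and that of all genes tested was -0.0005.

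**Figure D1:**
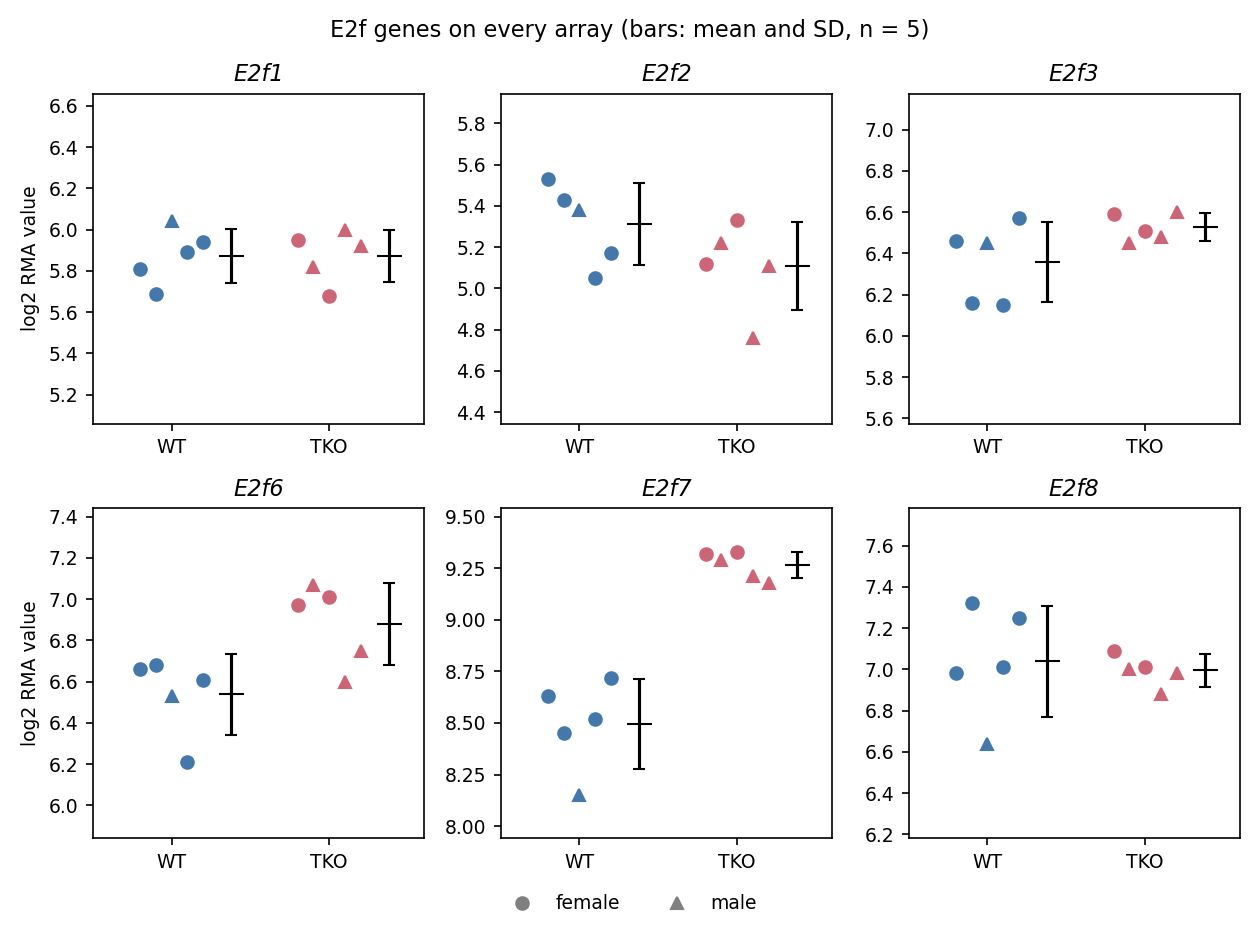
Log2 RMA values of the 6 E2f genes (one panel each, all vertical axes of equal length) in 5 WT and 5 TKO embryos, circles for females and triangles for males, with the mean and SD beside each group. E2f7 spans 8.15 to 8.72 in WT, 9.18 to 9.33 in TKO, and the genotypes overlap in the other 5 panels.

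E2f7, the atypical repressor, was at 8.63, 8.45, 8.15, 8.52 and 8.72 in WT 1 to WT 5. In TKO 1 to TKO 5 it was at 9.32, 9.29, 9.33, 9.21 and 9.18. Every TKO embryo was above every WT embryo, and the TKO values lay closer together than the WT values, with the male WT 3 the lowest of all. The means were 8.49 ± 0.22 and 9.27 ± 0.06 (SD, n = 5 each), and with sex in the model the log2 change was 0.86 with a standard error of 0.083 and a 95% interval from 0.68 to 1.05, a 1.82-fold increase (limma adjusted p = 0.000322; exact two-sided permutation p = 0.00794, which no split of 5 and 5 can undercut). Among the 16635 genes its increase ranked 60th by size. The difference was present in both sexes: the TKO females were higher than the WT females by 0.74 (2 against 4 embryos), and the TKO males were higher than the single WT male by 1.08.

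E2f8, its closest relative, was at 6.98, 7.32, 6.64, 7.01 and 7.25 in WT 1 to WT 5 and at 7.09, 7.0, 7.01, 6.88 and 6.98 in TKO 1 to TKO 5. All 5 TKO values fell inside the WT range, of which WT 3 was the lower end. The log2 change was 0.06 (SE 0.11, 95% interval -0.17 to 0.29, limma adjusted p = 0.806). Its sign turned in 5 of 24 other settings, among them to -0.04 without sex in the model and to -0.08 without WT 3. WT 3 was the one WT male, so without it the model with sex compares the genotypes in females alone. Increases above 0.29 lie outside the interval of E2f8, while that of E2f7 starts at 0.68.

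The pair was therefore compared array by array, as the log2 value of E2f7 minus that of E2f8. Such a difference between probe sets has no meaning as a ratio of levels, and its shift between genotypes shows unequal change. It ran from 1.14 to 1.65 in WT and from 2.20 to 2.34 in TKO. The shift was 0.82 (within-group SD 0.19 in WT and 0.06 in TKO; exact permutation p = 0.00794, adjusted over the 15 pairs of members 0.0238), and the 5 TKO values all lay above the WT range.

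Because E2f7 and E2f8 differed in response, the 250 bases before the start of each gene are shown, 5′ to 3′ on the gene's strand, from RefSeq (GRCm38.p6). E2f7 is at chr10:110745189-110745438 on the plus strand and E2f8 at chr7:48881597-48881846 on the minus strand. Capitals mark matches to the E2F site (TTTCCCGC, TTTCGCGC, TTTGCCGC or TTTGGCGC) and to the cell-cycle homology region (TTTGAA), each on either strand, which do not overlap one another.
E2f7: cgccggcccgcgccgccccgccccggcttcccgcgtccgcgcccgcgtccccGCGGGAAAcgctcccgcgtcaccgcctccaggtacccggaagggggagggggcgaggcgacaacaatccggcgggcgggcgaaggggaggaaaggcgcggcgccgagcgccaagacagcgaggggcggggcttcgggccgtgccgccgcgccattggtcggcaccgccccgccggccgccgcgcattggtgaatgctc
E2f8: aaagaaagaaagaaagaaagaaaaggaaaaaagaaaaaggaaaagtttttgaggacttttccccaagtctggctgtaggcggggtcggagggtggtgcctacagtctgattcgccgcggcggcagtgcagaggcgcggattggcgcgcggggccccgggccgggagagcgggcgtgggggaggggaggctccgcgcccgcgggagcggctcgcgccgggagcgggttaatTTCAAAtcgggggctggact
E2f7 held 1 match to the E2F site, which began 198 bases before the start, and E2f8 held 1 match to the cell-cycle homology region, 20 bases before it. Over the full windows of 300 bases, which run 50 bases past the start, 2.26% of 32851 promoters held the E2F letters and 17.9% held TTTGAA on either strand. Matches to the E2F letters were also in 1 of 2 windows of E2f2 and in 1 of 2 windows of E2f3, and in none of those of E2f1 and E2f6. TTTGAA was likewise in 1 of 2 windows of E2f2 and in 1 of 2 windows of E2f3. The GC content of the printed stretches was 79.2% for E2f7 and 62.4% for E2f8. A match describes letters only, and binding was not measured.

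E2f6, the polycomb-bound repressor, was at 6.66, 6.68, 6.53, 6.21 and 6.61 in WT 1 to WT 5 and at 6.97, 7.07, 7.01, 6.60 and 6.75 in TKO 1 to TKO 5. The lowest TKO value, that of TKO 4, was below 3 of the WT values, and the other 4 TKO values were above them all. The means were 6.54 ± 0.19 and 6.88 ± 0.20, and the log2 change was 0.39 (SE 0.12, 95% interval 0.11 to 0.66). It missed the threshold (limma adjusted p = 0.0973, unadjusted p = 0.00943, which ranked 1610th of 16635 genes).

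None of the activators passed the test. E2f1, the founding member, was at 5.81, 5.69, 6.04, 5.89 and 5.94 in WT 1 to WT 5 and at 5.95, 5.82, 5.68, 6.0 and 5.92 in TKO 1 to TKO 5, and the groups covered the same range. Its means were 5.87 ± 0.13 in both genotypes, and the log2 change was -0.06 (95% interval -0.26 to 0.15, limma adjusted p = 0.793), with a sign that turned in 3 of 23 other settings.

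E2f2 was at 5.53, 5.43, 5.38, 5.05 and 5.17 in WT and at 5.12, 5.22, 5.33, 4.76 and 5.11 in TKO, in the same order of embryos. The ranges overlapped, with WT 1 the highest and TKO 4 the lowest. The log2 change was -0.17 (95% interval -0.47 to 0.13, limma adjusted p = 0.53).

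E2f3, reported elsewhere as a miR-34 target, was at 6.46, 6.16, 6.45, 6.15 and 6.57 in WT and at 6.59, 6.45, 6.51, 6.48 and 6.60 in TKO. The TKO values sat within and just above the upper part of the WT range and were closer together (SD 0.07 against 0.19). The log2 change was 0.16 (95% interval -0.07 to 0.39, limma adjusted p = 0.438), a 1.12-fold difference that did not pass.

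**Figure D2:**
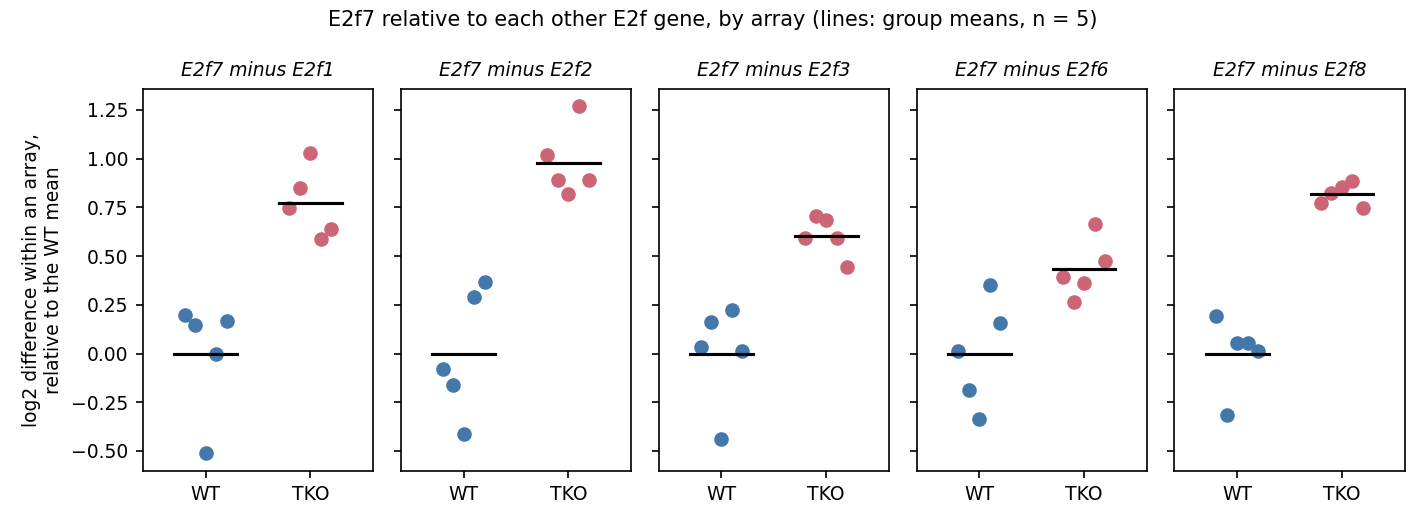
The log2 value of E2f7 minus that of each other E2f gene on the same array, set so that the WT mean is 0, for 5 WT and 5 TKO embryos, with lines at the group means. The TKO mean lies between 0.43 above WT (against E2f6) and 0.98 above WT (against E2f2), and the genotypes overlap in the E2f6 panel alone.

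The change of E2f7 was compared with that of every other member in the same way, without sex in the test. It exceeded that of E2f1 by 0.77, that of E2f2 by 0.98 and that of E2f3 by 0.60, each with no overlap between genotypes (exact permutation p = 0.00794, adjusted over 15 pairs 0.0238). It exceeded that of E2f6 by 0.43 (exact permutation p = 0.0159, adjusted 0.0397), a call that was lost in 5 of the 10 fits that left out 1 array: without WT 3, TKO 1, TKO 3, TKO 4 or TKO 5, with shifts of 0.35 to 0.45. Of the 15 pairs 6 passed, 5 of them with E2f7. The 6th was E2f6 against E2f2. The difference E2f6 minus E2f2 was 0.55 larger in TKO (exact permutation p = 0.00794, adjusted 0.0238), with within-group SDs of 0.13 and 0.10 that were smaller than those of either gene alone. The activators were not separated from one another or from E2f8 (adjusted p 0.0744 to 0.849 over those pairs), and E2f6 was not separated from E2f1, E2f3 or E2f8 (adjusted p = 0.155, 0.325 and 0.0744). With 1 array left out 3 of these pairs passed: E2f3 against E2f8 (adjusted exact permutation p = 0.034) and E2f6 against E2f8 (0.0198) without WT 3, and E2f3 against E2f2 (0.034) without WT 5. The members were not equally bright: E2f7 lay at percentile 93.6 of genes by mean value, E2f8 at 68.6 and E2f6 at 63.0. E2f3 lay at 58.0, E2f1 at 47.4 and E2f2 at 35.4. The part of brightness in the unequal changes was not tested.

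The partners of the family were read next. Of 7 genes, which are the other E2f genes, the DP subunits and the pocket proteins, 2 rose, none fell and 5 did not pass, and their median log2 change was 0.14. The share called was 28.6%, beside 5.51% of all genes. The count was 1 without WT 3 and 0 with females only or with the mean of markers of non-epithelial tissues as a covariate (2 had an unadjusted p below 0.05 in each). Tfdp2, which encodes the DP2 subunit that pairs with E2F1 to E2F6, rose from 6.87 ± 0.13 to 7.33 ± 0.15 (1.45-fold, limma adjusted p = 0.00516). E2f5, a partner of the multiciliation factors Gmnc and Mcidas, rose from 7.03 ± 0.15 to 7.61 ± 0.07 (1.47-fold, limma adjusted p = 0.00552), while E2f4, which shares that role, was 8.10 ± 0.05 and 8.14 ± 0.05. The arrays of Tfdp2 and E2f5 did not overlap between genotypes, as was so for 7.6% of all genes. Tfdp1, the DP1 gene, had a log2 change of 0.28 (limma adjusted p = 0.184). The pocket proteins did not pass: Rb1 was at 0.02, Rbl1 at 0.14 and Rbl2 at 0.09.

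Upstream of the E2Fs, of 14 tested G1 cyclins, kinases and inhibitors 3 rose, 1 fell and 10 did not pass, with a median of 0.02 that turned to -0.015 with quantile normalization. These calls were 28.6% of the list, beside 5.51% of all genes. The counts were 2 higher and 0 lower with females only (6 had an unadjusted p below 0.05). They were the same with the mean of markers of non-epithelial tissues as a covariate (5 had such a p), where the median was 0.13. Without WT 3 they were 3 and 0 (7 had such a p). The 1 fall was thus not called in these settings. Ccnd3, of the D-type cyclins, rose from 8.68 ± 0.06 to 9.24 ± 0.02 (1.48-fold, limma adjusted p = 0.000426) and the kinase gene Cdk6 from 8.36 ± 0.06 to 8.99 ± 0.08 (1.53-fold). Cdkn2c, an inhibitor of that kinase, rose from 5.61 ± 0.14 to 6.19 ± 0.15 (1.45-fold), and Cdk4, the sister kinase, fell from 9.70 ± 0.05 to 9.37 ± 0.09, a log2 change of -0.33. All 4 had no overlap between genotypes, as was so for 7.6% of all genes. The plot of these genes shows the increase of E2f7 as the largest in it.

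**Figure D3:**
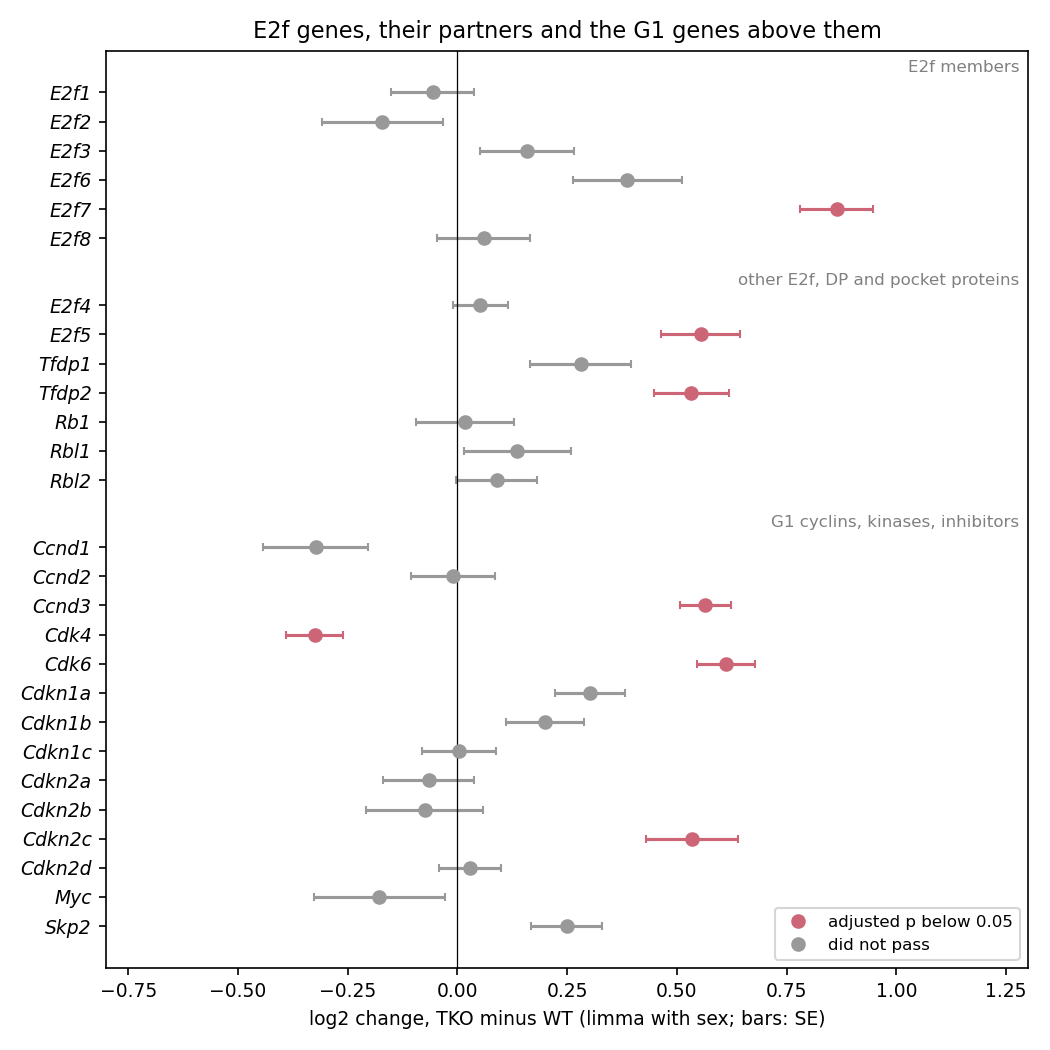
Log2 change, TKO minus WT, with its standard error, for the 6 E2f genes, 7 partners and pocket proteins, and 14 G1 cyclins, kinases and inhibitors, in red where the limma adjusted p is below 0.05. E2f7 is at 0.86, followed by Cdk6, Ccnd3, E2f5, Cdkn2c and Tfdp2 between 0.53 and 0.61.

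The genes that E2Fs switch on for S phase passed about as often as all genes. Of 66 listed E2F targets of G1/S 60 were tested: 3 rose, none fell and 57 did not pass, a share of 5.0% beside 5.51% for all genes. An unadjusted p below 0.05 was found for 16 of the 60, 15 higher and 1 lower. Over all 16635 genes it was found for 3483, 2199 higher and 1284 lower. Dbf4, whose product activates the kinase of origin firing, rose from 7.87 ± 0.16 to 8.41 ± 0.10 (1.46-fold, limma adjusted p = 0.00738), Gins1, a subunit of the replicative helicase, from 5.85 ± 0.25 to 6.58 ± 0.32 (1.73-fold, limma adjusted p = 0.0219), and Gmnn, the licensing inhibitor geminin, from 7.20 ± 0.15 to 7.62 ± 0.13 (1.29-fold, limma adjusted p = 0.0408). Brca1, of homologous recombination, had a log2 change of 0.28 (limma adjusted p = 0.0618) with no overlap. The list's median was 0.13, and 52 of its 60 genes were above 0, against 49.8% of all genes tested. The count was 0 without WT 3, 1 without TKO 3 and 7 without WT 5 (6 higher, 1 lower); with 0 called, 7 of the 60 had an unadjusted p below 0.05.

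Targets of E2F in cell death and metabolism went no common way. Of all genes tested 5.51% were called and 20.9% had an unadjusted p below 0.05. Beside these shares, none of the 7 tested here passed and 1 had such a p. That was Bbc3, the gene of the death protein PUMA, at 6.89 ± 0.23 in WT and 6.40 ± 0.43 in TKO (log2 change -0.64, limma adjusted p = 0.0629). Pdk4, a brake on glucose oxidation, was at -0.30, Bcl2l11, the gene of BIM, at 0.13 and Pmaip1, the gene of NOXA, at -0.11. The median was -0.09.

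The other subunits of the E2F6 complex, PRC1.6, did not pass either: none of 12 was called and 5 had an unadjusted p below 0.05, 4 higher and 1 lower. Of all genes tested 5.51% were called and 20.9% had such a p. Of the 12, 1 was called without sex in the model and 1 with the mean of non-epithelial markers as a covariate. With the replicate number as a block 2 were called. All of these calls were higher in TKO. Pcgf6, which defines the complex, had a log2 change of 0.34 (limma adjusted p = 0.0822) with no overlap between genotypes, Yaf2 was at 0.48, the scaffold gene Mga at 0.24 and L3mbtl2 at 0.36. Beside E2f6 at 0.39, the list's median was 0.14. Of the germline genes known to be silenced through E2F6, Stag3 (-0.12, limma adjusted p = 0.499) and Slc25a31 (-0.02, limma adjusted p = 0.958) were tested and neither had an unadjusted p below 0.05. Smc1b (4.55 ± 0.20 in WT and 4.32 ± 0.28 in TKO) and Mael (3.25 ± 0.17 and 3.12 ± 0.16) were below the filter on dim genes.

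Markers of G2 and mitosis were read beside E2f7. Of 19 tested, 9 rose, none fell and 10 did not pass, and the median was 0.37. The called share was 47.4%, beside 5.51% of all genes. The count was 4 without WT 3 or TKO 3, 6 without TKO 1, 14 without WT 5, 2 with the mean of non-epithelial markers as a covariate and 0 with females only (11 had an unadjusted p below 0.05), where E2f7 kept its call (limma adjusted p = 0.0286). Top2a, the topoisomerase of dividing cells, rose 1.71-fold, the mitotic kinase gene Aurka 1.5-fold, the centromere gene Cenpf 1.62-fold and the cyclin gene Ccnb2 1.37-fold (limma adjusted p from 0.00105 to 0.00479). The mean of the markers per embryo, centred per gene, ran from -0.37 to -0.01 in WT and from 0.10 to 0.27 in TKO and so separated the genotypes fully. With that mean as a further covariate the change of E2f7 was 0.60 (SE 0.16, limma adjusted p = 0.41) that of E2f6 was -0.14 and the median of the G1/S targets was -0.10, in a fit that called 0 genes in all and gave 1458 an unadjusted p below 0.05.

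**Figure D4:**
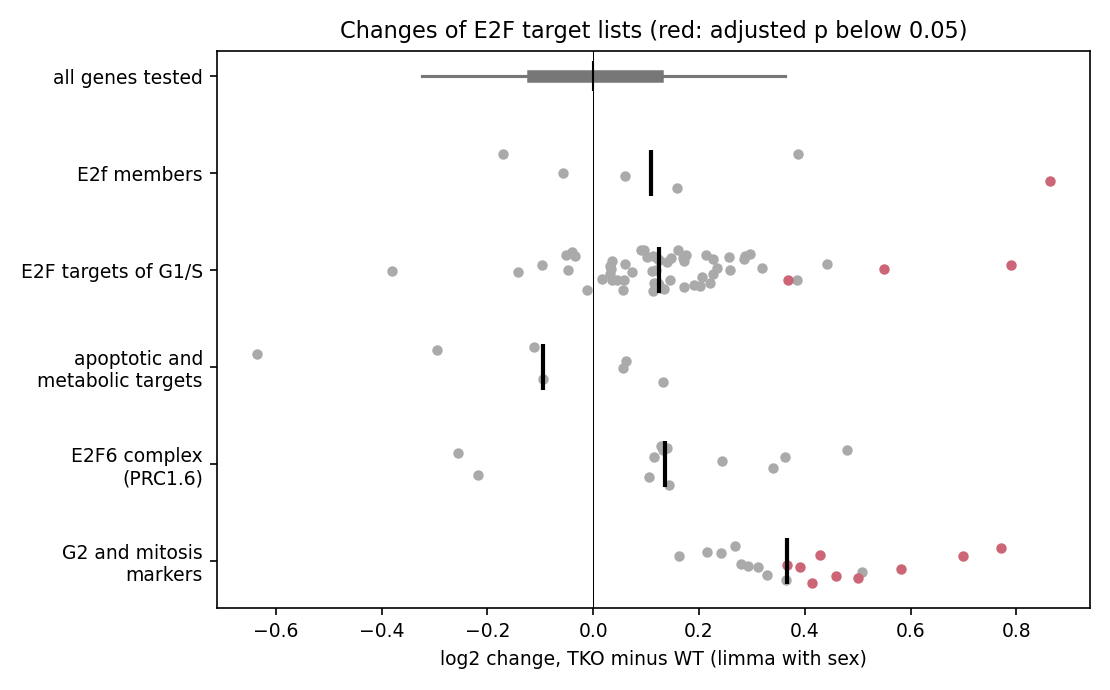
Log2 change, TKO minus WT, of each tested gene of 5 lists (points, red where the limma adjusted p is below 0.05; vertical bars, list medians; vertical scatter within a list has no meaning), below a bar for all 16635 genes (line, 5th to 95th percentile; box, 25th to 75th). The middle of all genes is at 0, the G1/S targets have a median of 0.13 and the markers of G2 and mitosis 0.37, with E2f7 at 0.86.

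Markers of other tissues were read beside these. All 12 mesenchyme markers had log2 changes below 0 (1 fell, 7 had an unadjusted p below 0.05, median -0.39), as did all 10 of skeletal muscle (2 fell, 9 had an unadjusted p below 0.05, median -0.87) and all 8 tested of endothelium (1 fell, 2 had an unadjusted p below 0.05, median -0.27). The shares called in these lists were 8.3%, 20% and 12.5%. Of all genes 5.51% were called and 20.9% had an unadjusted p below 0.05. Without sex in the model none of the mesenchyme, muscle and endothelium lists had a called gene (1, 5 and 1 had an unadjusted p below 0.05) and the medians were -0.16, -0.65 and -0.11. Not every mesenchyme and endothelium marker was then below 0, while all 10 of skeletal muscle still were. The common sign in mesenchyme and endothelium thus holds only with sex in the model. With 1 array left out the muscle count ran from 0 (without WT 3 or any one of TKO 1 to TKO 4) to 7 (without WT 2), the mesenchyme count from 0 (without WT 3, TKO 1 or TKO 3) to 2 and the endothelium count from 0 to 2. None of 7 cartilage, 7 leukocyte, 6 glia and 9 olfactory neuron markers passed, with medians of -0.05, -0.25, -0.11 and 0.19, and 1, 0, 1 and 0 of them had an unadjusted p below 0.05. Without sex in the model the medians of cartilage, leukocyte and olfactory neuron markers turned, to 0.12, 0.06 and -0.44. The leukocyte genes Ptprc and Cd3e and the endothelial gene Tek were below the filter. The mean of the 6 non-epithelial lists, olfactory neurons left out, per embryo overlapped between genotypes, from -0.38 to 0.38 in WT and from -0.45 to 0.19 in TKO. With it as a covariate E2f7 was at 0.91 (SE 0.11, limma adjusted p = 0.00812), E2f6 at 0.19 (limma adjusted p = 0.657), and no G1/S target passed (9 had an unadjusted p below 0.05). The part of either marker mean in the change of E2f7 was not tested further.

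The genes whose values ran most like those of each member over the 10 arrays were found by Pearson's r, given as a description. Arrays of both genotypes are pooled in it, so a shared genotype difference raises it, and r after removing the genotype means is given second. Sex was not removed in either, and the genes are the highest of all those tested. For E2f7 they were Shisa8 (0.99 and 0.88), Rad17, a loader of the DNA damage clamp (0.98 and 0.87), and Kif18a, a mitotic kinesin (0.98 and 0.87), and all 3 rose in TKO, by 1.14, 0.60 and 0.99. The male WT 3 was the lowest WT array for both E2f7 (8.15) and Shisa8 (7.16), and its part in their r was not tested. For E2f6 they were the chromatin remodeller gene Chd1 (0.97 and 0.95), Cpt2 (0.96 and 0.93), of fatty acid oxidation, and the SUMO protease gene Senp2 (0.96 and 0.91). Chd1 and Senp2 rose, by 0.39 and 0.37, with limma adjusted p of 0.0483 and 0.0447.

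For the other members the like genes did not pass the test. E2f8 ran most like Virma (0.94 and 0.93), of the RNA methylation complex, Brap (0.93 and 0.95) and Acot4 (0.92 and 0.95). E2f3 ran most like Gm16523 (0.98 and 0.97), Zmym1 (0.95 and 0.93) and Bach1 (0.94 and 0.94). E2f2 ran most like Smyd3 (0.97 and 0.97), 4930405J17Rik (0.95 and 0.94) and Lrrc1 (0.94 and 0.93), and E2f1 most like Tmem204 (0.92 and 0.92), Asic4 (0.90 and 0.93) and Rgr (0.89 and 0.91).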

How the data were processed

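The authors deposited log2 values, which they made with RMA in the Affymetrix Expression Console, per the labels and the submitters' processing notes; RMA corrects the background, equalises the arrays' distributions and summarises the probes of each set, which limits differences shared by most genes. Arrays correlated at 0.975 to 0.989, and the number of arrays limits the precision. Neither the program's version nor the array's genome build was given in the labels.

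Of 41345 probe sets 23521 had exactly 1 gene symbol, 1814 several and 16010 none. The brightest probe set was kept per gene (22180 genes), and genes with a mean below the 25th percentile (4.58) were left out, which left 16635. TKO and WT were compared two-sided in limma 3.58.1 (R 4.3.3), in a model that held labelled sex and let the variance follow intensity, with p-values adjusted by Benjamini-Hochberg. Exact permutation tests used all 252 assignments of the 10 arrays, and with 1 array left out all assignments of those that remained. Folds are from the model with sex; means and SDs are unadjusted. The scripts were tested on simulated data. Figures used matplotlib 3.10.9.

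The members, the gene lists and the tests were chosen with earlier results of these data known. All members and targeted microRNA genes were named, all 7 partners, up to 4 genes by call and then p from the other lists (of the marker lists, the epithelial list), and 3 like genes per member; others named stand beside a small count or dim value and were chosen after their values were seen. Alternatives tried were a replicate block, dropping sex, other filters, scalings and variance models, array weights, other ways to join probe sets, the female embryos alone, leaving out each array, and both marker means as covariates.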

Additional observations from a re-analysis of the deposited data

Results flagged for a closer look

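In 126 groups of 5 arrays (63 named genes in 2 genotypes) 13 held an array set apart from the other 4 by over 0.71 of the group's range, where chance gives about 1 in 20. None was of the 6 E2f genes, and 6 were on TKO 4. On TKO 4, Tfdp1 was low at 8.30 (next 8.67), Cdk4 low at 9.22 (next 9.38), Epcam low at 8.60 (next 8.68), Virma low at 7.11 (next 7.21), 4930405J17Rik low at 5.18 (next 5.47) and Ccnd3 high at 9.28 (next 9.24). On WT 3, Brca1 was low at 5.70 (next 5.95) and Shisa8 low at 7.16 (next 7.75). Bcl2l11 was low on WT 4 at 5.84 (next 6.14). On WT 2, L3mbtl2 was high at 7.14 (next 6.81) and Trp63 high at 7.96 (next 7.48). Slc25a31 was high on TKO 2 at 5.25 (next 4.74), and Mir449b high on TKO 1 at 12.08 (next 11.76).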

How the results depend on the processing

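E2f7 kept its direction in all 24 other settings, from 0.60 to 0.91, and its call in 23 (limma adjusted p from 0.000155 to 0.41). As each member had 1 probe set, other filters, variance models and ways to join probe sets left its log2 change as it was. In those settings only its p could move. The count of changed genes, 916, was 56 with females only, 102 with the non-epithelial mean as covariate and 0 with the mean of the G2 and mitosis markers, and 210 (without WT 3) to 1284 with 1 array left out. Without WT 3, the one WT male, the model with sex gave the same log2 changes as females only (0.74 for E2f7). The males then add to the variance alone, and the settings are not separate checks. The 3 called G1/S targets became 5 without sex and 0 with females only or with either mean (5, 9 and 6 with an unadjusted p below 0.05), and 0 to 7 with 1 array left out. Without sex E2f1 was at 3e-05 and E2f8 at -0.044; with females only E2f8 was at -0.084; with the non-epithelial mean E2f1 was at 0.052 and E2f8 at -0.077. With the mean of the G2 and mitosis markers E2f1 was at 0.076, E2f3 at -0.11, E2f6 at -0.14, E2f7 at 0.60 and E2f8 at -0.26. With 1 array left out E2f8 ran from -0.084 to 0.13. Of the pair shifts, E2f1 minus E2f8 then ran from -0.072 to 0.18 (-0.072 without WT 2, -0.017 without TKO 4), E2f3 minus E2f8 from 0.092 to 0.34, E2f6 minus E2f8 from 0.31 to 0.48, E2f3 minus E2f2 from 0.29 to 0.46 and E2f7 minus E2f6 from 0.35 to 0.52. The cause of these shifts was not tested. The stricter filter left out E2f1 and E2f2.

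The replicate number as a block moved E2f6 past the threshold (log2 change 0.37, limma adjusted p = 0.0447) and no other E2f gene. The labels do not pair the numbers, and the deviations of same-numbered embryos correlated at -0.08, -0.06, -0.13, 0.38 and -0.06. Such correlations cannot decide whether the numbers pair the embryos.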

Other observations

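The 6 E2f genes were also read for a difference between labelled sexes, in the same fit that compared the genotypes with sex in the model. With genotype in the model, males differed from females by 0.14 in E2f1, -0.08 in E2f2, 0.02 in E2f3, -0.12 in E2f6, -0.23 in E2f7 and -0.26 in E2f8 on the log2 scale. None passed (limma adjusted p from 0.559 for E2f7 to 0.972 for E2f3).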
